A study of Mus musculus with 23 samples.

Results

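The levels of 10 genes of the complement system were followed across lungs of mice exposed to bacterial lipopolysaccharide (LPS). They encode the 3 chains of C1q (C1qa, C1qb, C1qc), the components C2, C4b and C3, factor B (Cfb), properdin (Cfp), and the receptors C3ar1 and C5ar1. The genes were picked by symbol (GENCODE M21), with a rule that uses no measured value, and all 10 were found among the 41388 genes counted. The list was nevertheless chosen with earlier results of these data known. Counts of its called genes below are therefore no independent test of it. All 10 also passed the filter on low counts, which left 17148 genes for testing.

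Complement is a cascade of blood and tissue proteins that marks particles for uptake and recruits leukocytes. C1q binds antibody or altered surfaces and starts the classical pathway, in which C4 and C2 form an enzyme that cleaves C3. In the alternative pathway, factor B joins C3b to form another C3-cleaving enzyme, which properdin stabilises. Cleavage of C3 and C5 releases the small peptides C3a and C5a, which act on the receptors C3aR and C5aR1. The liver makes most circulating complement, but in lung C1q comes largely from macrophages, C3 is also made by epithelium and stroma, and the receptors are known from myeloid cells.

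RNA-seq was done on lungs of male Balb/c mice, 1 library per mouse. Mice breathed clean air (n = 3) or aerosolised LPS at 0.21 mg/ml (n = 5 in each of 4 groups) for 10 min on 3 days. Of the LPS groups, 1 had no AAT and the others received human alpha1-antitrypsin (AAT), a plasma inhibitor of neutrophil elastase, injected intraperitoneally at 4 mg/kg, 1 h after every aerosol. AAT was native (LPS+nAAT), oxidized (LPS+oxAAT) or recombinant (LPS+recAAT), and saline is the injection that the protocol gives in its place. The experiment ended 6 h after the last injection. The whole lung was sequenced, so more cells of a type and more RNA per cell cannot be told apart in any value below, and changes in protein or in cleavage of complement were not measured.

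Libraries held 14.8 to 47.9 M gene counts. Summed alveolar type 2 markers, a check of the labelled tissue, were 25423 to 34767 CPM (counts scaled to the library total) over the libraries, with no marker of that list at 0 throughout a group. Summed markers of liver, the main source of circulating complement, were 0.818 to 13.8 CPM. The libraries separated into sets when mt-Nd6, encoded opposite the other mitochondrial protein genes, was divided by mt-Nd5. This ratio was 0.338% to 1.14% in a first set of 15 libraries and 3.39% to 4.5% in a second set of 8. The second set holds every library with recombinant AAT and the oxidized AAT libraries 5103, 5104 and 5105, and no other. The set is therefore confounded with recombinant AAT, and values with a term for it are given where they change a call.

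All 10 genes lie on the minus strand (GRCm38, GENCODE M21). C1qb (chr4:136880129-136886187), C1qc (chr4:136889804-136893065) and C1qa (chr4:136895917-136898803) are neighbours, 3616 and 2851 bases apart. On chromosome 17, C4b (chr17:34728380-34743882), Cfb (chr17:34856374-34862518) and C2 (chr17:34862604-34898265) lie in the major histocompatibility region, with 85 bases between Cfb and C2. C3 is at chr17:57203970-57228136, Cfp at chrX:20925454-20931555, C3ar1 at chr6:122847138-122856161 and C5ar1 at chr7:16246743-16259540. A read-through gene model, Gm20547, shares 79.5% of the exon bases of Cfb and 42.8% of those of C2, on the same strand. Gm20547 had 0 counts in all libraries, so counts of Cfb and C2 may leave out reads that fell on shared exons, and their absolute levels are uncertain. C4b has a near-identical copy, C4a, between which reads can be split. Zbtb12, on the opposite strand, covers 4.16% of the exon bases of C2, and the genes other than C2 and Cfb overlapped no annotated exon of another gene.

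Promoter windows from RefSeq (GRCm38.p6, 250 bases before to 50 after the start) were given for 6 of the 10 genes: C1qb, C1qc, C3, Cfp, C3ar1 and C5ar1. They were searched on both strands for 5 short motifs: GGG and TTTCC with 2 bases between (NF-kB), TTCNNNGAA (STAT), TTGCNNAA (C/EBP), GAAA repeated after 2 bases (interferon-stimulated response element) and GAGGAAG (ETS factors such as PU.1). Of all 32851 windows of 300 bases, 1.63%, 8.3%, 10.8%, 3.44% and 13.6% held these motifs, in that order. C3 held 1 C/EBP match, C3ar1 1 NF-kB match on the minus strand of the window and C1qc 1 ETS match on the minus strand, and the windows of C1qb, Cfp and C5ar1 held none. The bases of these 3 windows that lie outside annotated exons are printed 5′ to 3′ on the strand of the gene, with the match in capitals. They are the windows that held a match, those of C1qc, C3 and C3ar1. C3 is the most abundant component, and C3ar1 is the gene of the 10 that was called between LPS and the AAT groups. C1qc does not stand for the other C1q chains, as C1qb held no match and C1qa had no window.
C1qc, chr4:136893066-136893164, minus strand: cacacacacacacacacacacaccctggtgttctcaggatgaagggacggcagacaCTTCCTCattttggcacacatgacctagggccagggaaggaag
C3, chr17:57228137-57228386, minus strand: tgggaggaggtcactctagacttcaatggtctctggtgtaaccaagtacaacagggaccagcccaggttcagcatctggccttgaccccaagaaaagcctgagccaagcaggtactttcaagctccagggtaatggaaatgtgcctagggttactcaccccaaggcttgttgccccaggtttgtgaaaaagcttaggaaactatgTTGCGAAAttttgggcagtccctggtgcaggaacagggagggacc
C3ar1, chr6:122856162-122856407, minus strand: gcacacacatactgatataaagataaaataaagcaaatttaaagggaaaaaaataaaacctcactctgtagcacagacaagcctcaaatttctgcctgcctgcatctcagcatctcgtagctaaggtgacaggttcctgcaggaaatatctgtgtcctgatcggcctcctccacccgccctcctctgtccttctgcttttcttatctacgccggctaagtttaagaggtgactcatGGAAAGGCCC
A match is a string of letters in a window, and binding was not measured.

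The comparison of LPS with air asks what the inhaled endotoxin does to lung complement transcripts. Of the 10 genes, 8 rose and 0 fell: the 3 C1q chains, C2, C3, C4b, Cfb and C3ar1. Among all genes tested, 4.39% were called in either direction and 2.71% rose (edgeR's quasi-likelihood test, Benjamini-Hochberg adjusted p under 0.05). The median log2 fold change over the 10 genes was 0.84, against -0.01 over all genes. Cfp and C5ar1 were not called. Their log2 fold changes were 0.41 and -0.40.

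The chains of the recognition molecule rose together. C1qa, the A chain of C1q, was at 27.1, 29 and 43 CPM in air and at 66.4, 61.7, 61.4, 61.3 and 45.6 CPM in LPS. The highest air library lay just under the lowest LPS library, replicate 1105. The log2 fold change of C1qa was 0.84 ± 0.15 (SE), a 1.8-fold rise, with an adjusted p of 0.000574 by edgeR's quasi-likelihood test. C1qb, the B chain, was at 21.6, 21.5 and 30.6 CPM in air and at 44.2, 40.9, 44.8, 49.7 and 37 CPM in LPS. C1qc, the C chain, was at 21.3, 21.8 and 28.1 CPM in air and at 44.6, 45.4, 45.6, 43.9 and 40.2 CPM in LPS. For all 3 chains every LPS library was above every air library, as for 5.31% of all genes. The log2 fold changes of C1qb and C1qc were 0.82 ± 0.14 and 0.89 ± 0.13 (adjusted p = 0.000469 and 7.28e-05).

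C3, the protein on which all complement pathways converge, was the most abundant of the genes. It was at 823, 747 and 511 CPM in air and at 1720, 1444, 1772, 1894 and 1995 CPM in LPS. The groups were far apart, with the lowest LPS library well above the highest air library. C3 rose 2.54-fold (log2 1.35 ± 0.18, edgeR adjusted p = 2.92e-05), from 694 ± 163 CPM (SD, n = 3) to 1765 ± 209 CPM (SD, n = 5). The air libraries were themselves spread, and replicate 2105 was the lowest of them for C3 and C4b and the highest for the C1q chains.

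C4b, which supplies the thioester protein of the classical pathway, was at 231, 163 and 93.4 CPM in air and at 272, 301, 286, 274 and 318 CPM in LPS. All LPS libraries were above air, by a margin that depended on the air library. On the log2 scale C4b rose by 0.84 ± 0.19 (adjusted p = 0.0106 by edgeR). Without air replicate 2105 it was 0.56 with an adjusted p of 0.0809, and without air replicate 2102 it was 0.84 with an adjusted p of 0.0554. With only the LPS and air groups in the fit, the adjusted p was 0.0773 for C4b and 0.107 for C2. C2, the protease partner of C4, was low, at 4.22, 5.25 and 4.8 CPM in air and at 7.36, 8.76, 8.2, 5.13 and 9.6 CPM in LPS. LPS replicate 1104 lay inside the air range. C2 rose by 0.71 ± 0.18 on the log2 scale (adjusted p = 0.024 by edgeR). Leaving out any of the air libraries, or LPS replicate 1102, ended the call of C2, with adjusted p from 0.0541 to 0.117.

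Of the alternative pathway, the protease Cfb rose and its stabiliser Cfp was not called. Cfb had 0.397, 1.23 and 1.1 CPM in air, from 11, 38 and 29 counts, and 3.13, 4.1, 2.71, 1.74 and 4.05 CPM in LPS. The log2 fold change of Cfb, 1.78 ± 0.41 (adjusted p = 0.0103 by edgeR), was the largest of the 10 and the least precise. Without air replicate 2101, the lowest library, it was 1.43 with an adjusted p of 0.0829. Cfp was at 21.1, 18.3 and 18.6 CPM in air and at 28.9, 30.2, 20.4, 23.5 and 25.6 CPM in LPS, so that LPS replicate 1103 lay inside the air range. For Cfp the log2 fold change was 0.41 ± 0.16, with an adjusted p of 0.171 by edgeR and a 95% interval of 0.07 to 0.75.

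Of the anaphylatoxin receptors, C3ar1 rose and C5ar1 was not called. C3ar1, the receptor of C3a, was at 3.46, 4.02 and 3.06 CPM in air and at 7.07, 6.51, 7.51, 6.73 and 8.03 CPM in LPS. The groups did not overlap, and C3ar1 rose 2.04-fold (log2 1.03 ± 0.14, edgeR adjusted p = 3.24e-05). C5ar1, the receptor of C5a, was at 16.2, 15.5 and 13.1 CPM in air and at 11.4, 11.1, 12.6, 9.84 and 11.4 CPM in LPS. Every LPS library was below every air library, as for 5.97% of all genes, but the log2 fold change of -0.40 ± 0.13 did not pass the test (adjusted p = 0.0899 by edgeR, 0.0598 to 0.292 over 19 alternatives).

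**Figure D1:**
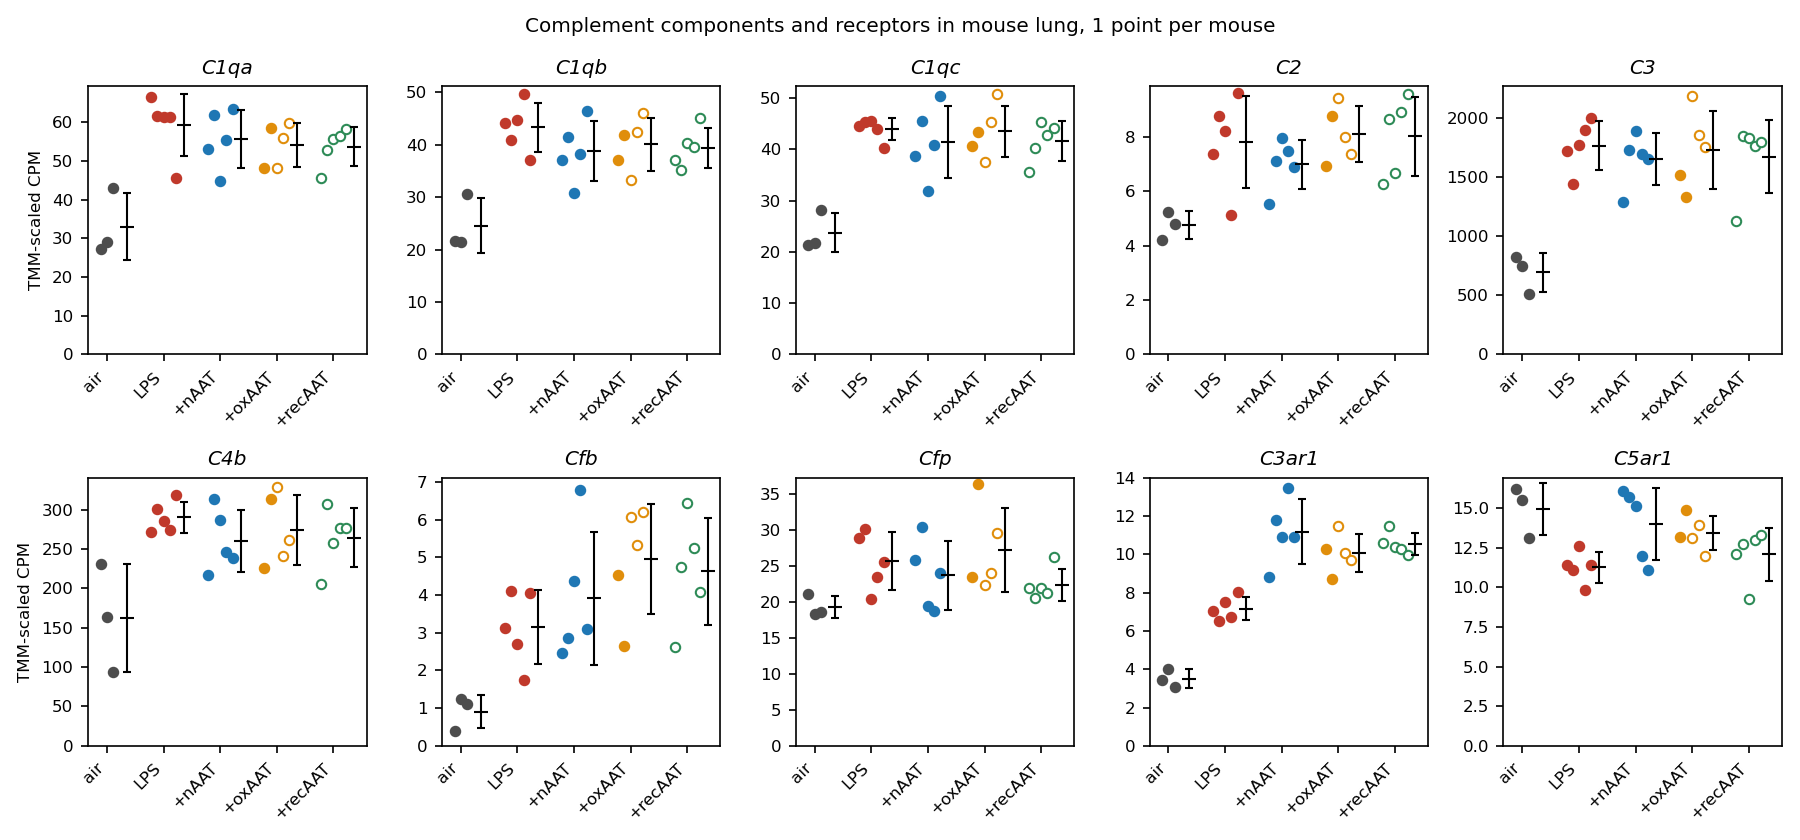
TMM-scaled CPM of the 10 genes in each of the 23 mice, by group, with the mean ± SD in black; open symbols are libraries of the second set. C3 lay between 511 and 823 CPM in air and between 1127 and 2186 CPM in the LPS groups. C3ar1 did not overlap between air (3.06 to 4.02 CPM), LPS (6.51 to 8.03 CPM) and the AAT groups (8.73 CPM or more). Its calls against LPS with oxidized and recombinant AAT ended with the library set as a term.

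Some markers of macrophages and of mesothelium, the lining of the lung surface, rose with these genes. Of 12 genes that mark interstitial and monocyte-derived macrophages, 6 rose from air to LPS, with a median log2 fold change of 0.58, and their summed level was 728 to 790 CPM in air and 923 to 1097 CPM in LPS. They included Cd14, an LPS co-receptor (log2 2.23), Adgre1, which encodes F4/80 (0.97), and Ms4a7 (1.09). Cd14 alone went from a mean of 28.5 CPM in air to 134 CPM in LPS. Among 11 markers of alveolar macrophages, 5 were called higher and 1, Ear2, lower, and the sum was 781 to 873 CPM in air and 1046 to 1263 CPM in LPS. The largest rises in mean CPM were those of Car4 (190 to 314), Chil3 (193 to 287) and Itgax (70.6 to 145). Siglecf had a lower mean in LPS (22.8 to 16.7 CPM), with overlapping ranges, and was not called. Fabp4 was not called either, with means of 15.9 CPM in air and 13.2 CPM in LPS. Its ranges nearly coincided, at 5.45 to 25.9 CPM in air and 5.51 to 28.4 CPM in LPS. Of 10 neutrophil and 6 monocyte markers none was called by edgeR, although the neutrophil sum was 200 to 255 CPM in air and 275 to 383 CPM in LPS. Of 4 mesothelium markers 1 rose, Msln, from 102 to 178 CPM, and their sum was 195 to 216 CPM in air and 254 to 396 CPM in LPS. Of 6 fibroblast and 7 alveolar type 2 markers none was called by edgeR, and their sums overlapped between air and LPS. No marker of these lists was at 0 throughout a group. The part of macrophage or mesothelial cell number in the rise of C1q, C3 and C3ar1 was not tested.

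The 3 AAT groups were each compared with the same air libraries, so these comparisons share their reference. LPS+nAAT had 7 of the 10 genes higher and 0 lower (all genes: 5.62% in either direction, 3.95% higher). LPS+oxAAT had 8 higher and 0 lower (3.76% and 2.72%), and LPS+recAAT had 8 higher and 0 lower (6.83% and 4.21%). In all 3, the C1q chains, C3, C4b, Cfb and C3ar1 were called, and Cfp and C5ar1 were not. C2 was called for LPS+oxAAT and LPS+recAAT, at log2 0.77 ± 0.18 and 0.75 ± 0.18 (adjusted p = 0.0139 and 0.0108 by edgeR), and was at 0.55 ± 0.18 for LPS+nAAT (adjusted p = 0.0839).

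C3 was 1.25 ± 0.18, 1.32 ± 0.18 and 1.27 ± 0.18 above air on the log2 scale with native, oxidized and recombinant AAT. Its edgeR adjusted p was 3.9e-05, 3.04e-05 and 3.21e-05. C1qa was 0.76 ± 0.14, 0.71 ± 0.14 and 0.70 ± 0.14 above air, beside 0.84 with LPS alone. Cfb was 2.08 ± 0.41, 2.43 ± 0.41 and 2.32 ± 0.41 above air (adjusted p = 0.00168, 0.000444 and 0.000502 by edgeR). C4b overlapped air in every AAT group, at air replicate 2101 with 231 CPM, and its call ended in all 3 comparisons without air replicate 2102 or 2105 (adjusted p from 0.0841 to 0.206). The call of C4b also ended without LPS+nAAT replicate 4102 or 4103, LPS+oxAAT replicate 5103, or LPS+recAAT replicate 6102 or 6104 (adjusted p from 0.0544 to 0.0841), and in all 3 with only the groups compared in the fit (0.205, 0.183 and 0.0988). That of C2 ended without air replicate 2101 for LPS+oxAAT (0.0951) and LPS+recAAT (0.0769), and without air replicate 2105 for LPS+oxAAT (0.0652).

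With the library set as a term, 1 of the 10 genes stayed called for LPS+recAAT against air, C3ar1. There the log2 fold change of C3 was 0.83 with an adjusted p of 0.118, and that of Cfb was 1.60 with an adjusted p of 0.186. LPS+recAAT lies wholly in the second set, so that the term rests on the LPS+oxAAT libraries, which lie in both. For LPS+oxAAT against air, the term ended the calls of C2 (adjusted p = 0.117) and C4b (0.149). With only the first set, which left 2 LPS+oxAAT libraries, 5 of the 10 genes were called, and C1qa (0.0814), C2 (0.174) and C4b (0.264) were not.

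The comparison of each AAT preparation with LPS asks whether AAT given after the aerosol alters the transcripts. Of the 10 genes, C3ar1 alone was called in each of these comparisons, and it was higher. Among all genes 0.595% were called in either direction with native AAT (0.449% higher), 4.71% with oxidized AAT (3.94% higher) and 8.49% with recombinant AAT (6.47% higher). A count of 1 in 10 is thus close to the share of all genes with recombinant AAT, and not far from it with oxidized AAT. There the count says nothing particular about the 10 genes. The 3 comparisons share the LPS libraries, so that they are not independent of each other.

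C3ar1 was at 8.81, 11.8, 10.9, 13.5 and 10.9 CPM with native AAT, against 6.51 to 8.03 CPM with LPS alone. It was at 10.3, 8.73, 11.5, 10.1 and 9.69 CPM with oxidized AAT, and at 10.6, 11.5, 10.4, 10.3 and 9.97 CPM with recombinant AAT. All 15 AAT libraries lay above all 5 LPS libraries, and these above all 3 air libraries. Groups were higher than LPS without overlap for 1.99%, 1.48% and 5.48% of all genes, in the order native, oxidized, recombinant. The means were 3.52 ± 0.482 CPM (SD, n = 3) in air, 7.17 ± 0.614 in LPS, 11.2 ± 1.71 with native, 10.1 ± 1 with oxidized and 10.6 ± 0.595 with recombinant AAT (SD, n = 5 each). The log2 fold change of C3ar1 against LPS was 0.64 ± 0.11 with native AAT (adjusted p = 0.0101 by edgeR), 0.48 ± 0.11 with oxidized AAT (0.0156) and 0.56 ± 0.11 with recombinant AAT (0.00318).

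The size of the C3ar1 difference lay between 0.40 and 0.64 with and without the library set, and the calls depended on it. With the library set as a term, the log2 fold change was 0.64 with native AAT (adjusted p = 0.00966), 0.40 with oxidized AAT (0.619) and 0.42 with recombinant AAT (0.668). With only the first set, it was 0.63 with native AAT (0.0554) and 0.40 with oxidized AAT (0.92), for which 2 libraries remained. With only the groups compared in the fit, the adjusted p was 0.0861 with native and 0.101 with oxidized AAT. The call with oxidized AAT also ended without LPS replicate 1102 (0.0571) or LPS+oxAAT replicate 5103 (0.0729).

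No macrophage marker passed the test beside C3ar1: 0 of 11 alveolar and 0 of 12 interstitial markers were called against LPS with any preparation (edgeR). Among all genes 0.595%, 4.71% and 8.49% were called with native, oxidized and recombinant AAT. At such shares, a count of 0 in lists this short does not set the markers apart from other genes. The summed interstitial markers were 943 to 1114 CPM with native, 912 to 1059 CPM with oxidized and 780 to 1027 CPM with recombinant AAT, beside 923 to 1097 CPM with LPS alone. The alveolar sums were 1278 to 1594, 994 to 1269 and 800 to 1255 CPM, beside 1046 to 1263 CPM with LPS alone, so that native AAT was above LPS there without overlap. Their part in the level of C3ar1 was not tested.

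C5ar1 was not called in any AAT group. It was at 16.1, 15.7, 15.1, 12 and 11.1 CPM with native AAT, at 13.2, 14.9, 13.1, 13.9 and 12 CPM with oxidized AAT, and at 12.1, 12.7, 9.24, 13 and 13.3 CPM with recombinant AAT. These ranges overlapped both LPS (9.84 to 12.6 CPM) and air (13.1 to 16.2 CPM). The log2 fold change of C5ar1 against LPS was 0.31, 0.25 and 0.10, and none passed the test (adjusted p = 0.204, 0.225 and 0.659 by edgeR).

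**Figure D2:**
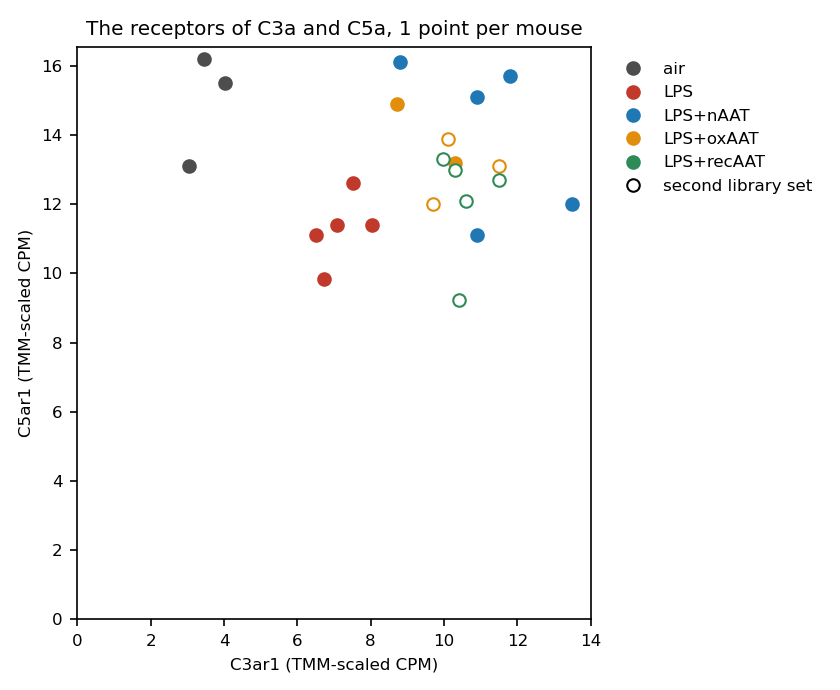
C3ar1 (x axis) against C5ar1 (y axis) in TMM-scaled CPM, 1 point per mouse, coloured by group; open symbols are libraries of the second set. C3ar1 separates air (3.06 to 4.02 CPM), LPS (6.51 to 8.03 CPM) and the AAT groups (8.73 to 13.5 CPM), whereas on the C5ar1 axis the AAT groups overlap both air and LPS.

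**Figure D3:**
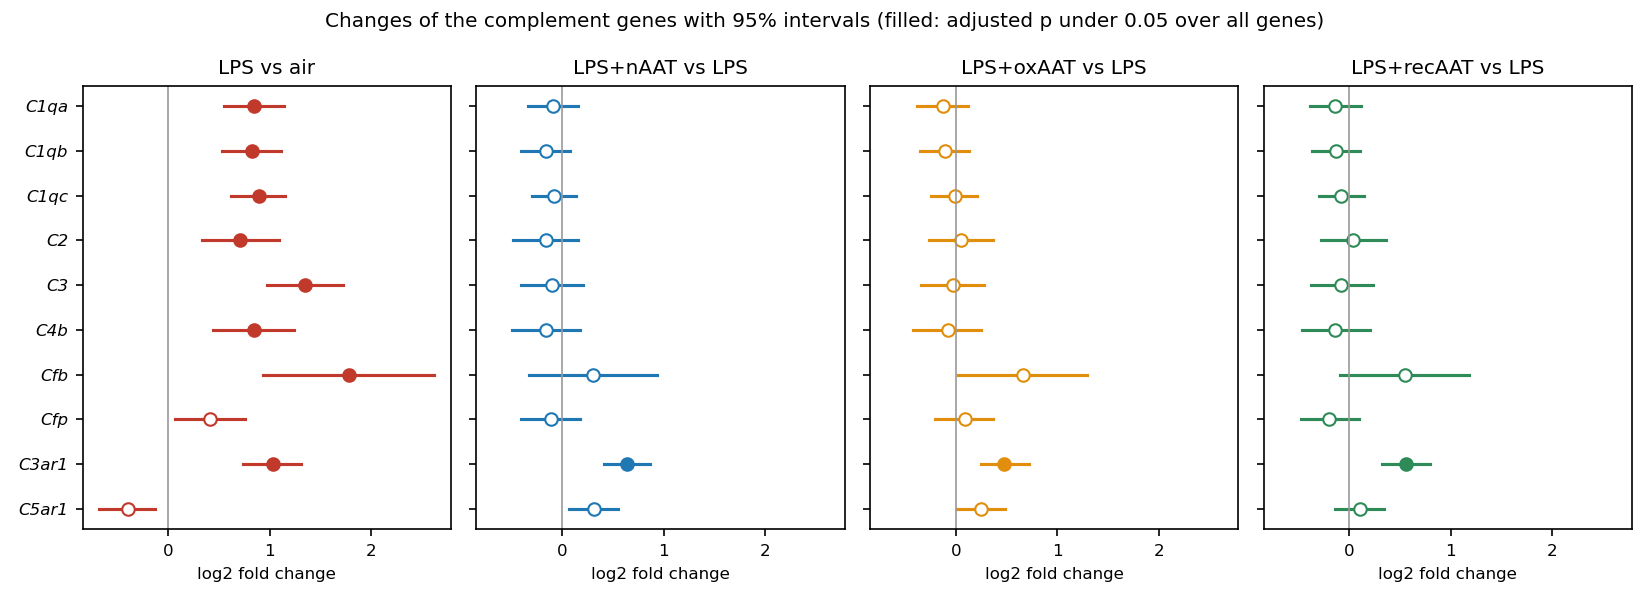
Log2 fold changes (x axis) of the 10 genes with 95% intervals as lines, shown for LPS against air and for AAT groups against LPS; filled points passed an adjusted p under 0.05. In LPS against air 8 points are filled, from C2 at 0.71 to Cfb at 1.78, and in each AAT panel C3ar1 is the filled point, at 0.64, 0.48 and 0.56.

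The components themselves were not called with AAT. C3 was at 1292, 1726, 1889, 1692 and 1652 CPM with native AAT, at 1515, 1334, 2186, 1854 and 1755 CPM with oxidized AAT, and at 1127, 1843, 1832, 1759 and 1800 CPM with recombinant AAT. Each range overlapped that of LPS. The log2 fold change of C3 against LPS was -0.10 (95% interval -0.40 to 0.21) with native, -0.03 (-0.34 to 0.28) with oxidized and -0.08 (-0.38 to 0.23) with recombinant AAT. The 3 C1q chains lay between -0.16 and -0.01 in these comparisons, with 95% intervals reaching no lower than -0.40. C4b was at -0.16, -0.08 and -0.14, with intervals from -0.49 to 0.25 over the 3.

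Cfb was not called in any AAT group either. It was at 2.45, 2.87, 4.36, 6.8 and 3.11 CPM with native AAT, at 4.52, 2.64, 6.06, 5.33 and 6.2 CPM with oxidized AAT, and at 2.62, 4.74, 6.44, 5.26 and 4.08 CPM with recombinant AAT. Within a group the libraries spread more than 2-fold, and each group overlapped LPS. Against LPS the log2 fold change of Cfb was 0.30, 0.66 and 0.55 (adjusted p = 0.672, 0.229 and 0.285 by edgeR), with an unadjusted p of 0.0425 for oxidized AAT. C2 ranged from 5.54 to 9.56 CPM over the AAT libraries, and Cfp from 18.8 to 36.4 CPM. Their log2 fold changes against LPS lay between -0.20 and 0.09.

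Native, oxidized and recombinant AAT differ in the state or source of the same protein and were given at the same dose and times. In the 3 comparisons among them, 0 of the 10 genes were called by edgeR, by DESeq2 or by limma voom, and 0 had an unadjusted edgeR p under 0.05. Of all genes, 0.344% were called for oxidized against native, 1.93% for recombinant against native and 0.0175% for recombinant against oxidized AAT. For C3ar1 the log2 difference was -0.16 (95% interval -0.39 to 0.07) for oxidized against native, -0.09 (-0.32 to 0.14) for recombinant against native and 0.07 (-0.16 to 0.30) for recombinant against oxidized. The smallest unadjusted p was 0.0546, for Cfp in recombinant against oxidized AAT at -0.28 (-0.57 to 0.01). Cfb had the widest intervals, at -0.27 to 0.97 for oxidized against native, -0.39 to 0.87 for recombinant against native and -0.73 to 0.51 for recombinant against oxidized AAT. These intervals bound the differences and do not show that the preparations act alike.

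Levels of different genes were compared per kilobase of exon, for the 8 genes other than C2 and Cfb. In air, C3 was highest at 135 ± 31.6 CPM per kb (SD, n = 3), followed by C1qa (31.8 ± 8.37), C4b (28.5 ± 12.1), C1qb (22.6 ± 4.8), C1qc (12.3 ± 1.95), Cfp (11.1 ± 0.885), C5ar1 (5.8 ± 0.63) and C3ar1 (0.817 ± 0.112). By mean ± SD, C1qa, C4b and C1qb did not separate from each other, nor did C1qc from Cfp. The order was the same in LPS, where C3 was at 343 ± 40.7, C1qa at 57 ± 7.65, C4b at 51 ± 3.4, C5ar1 at 4.39 ± 0.386 and C3ar1 at 1.67 ± 0.143 CPM per kb (SD, n = 5). There C1qa and C4b alone did not separate. C3ar1 thus remained the least abundant of these 8 transcripts per length, also with AAT, where it was at 2.33 to 2.6 CPM per kb by group mean. Of the genes left out, whose levels are uncertain, Cfb was counted below C3ar1, at 0.322 CPM per kb in air and 1.11 in LPS. C2 was counted above C3ar1 in these groups, at 1.23 and 2.02 CPM per kb. With AAT both were counted below C3ar1.

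The C1q chains, which assemble in equal numbers in the protein, kept nearly fixed proportions. Per length, C1qb was 0.633 to 0.779 of C1qa over the 23 libraries, with a median of 0.695, and C1qc was 0.352 to 0.475 of C1qa, with a median of 0.408. The medians by group were 0.663 to 0.727 for C1qb and 0.397 to 0.436 for C1qc. Air did not stand apart from LPS in either proportion.

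**Figure D4:**
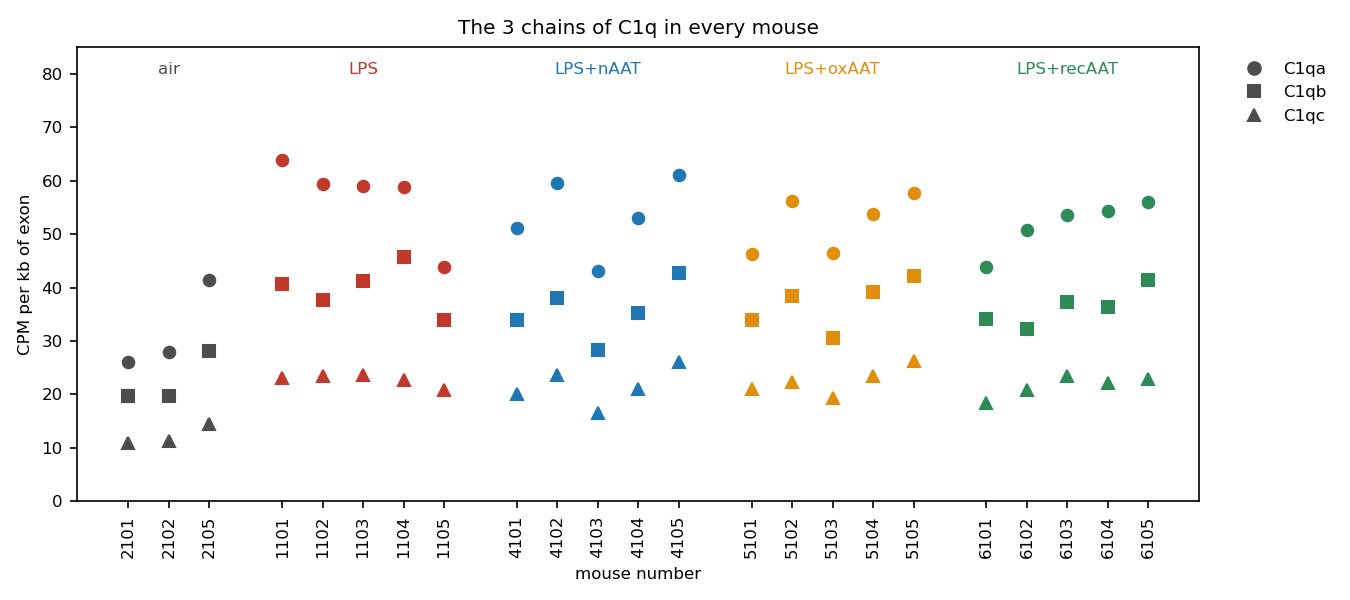
C1qa (circles), C1qb (squares) and C1qc (triangles) in CPM per kb of exon (y axis) in every mouse (x axis, by mouse number and group). The chains keep the order C1qa, C1qb, C1qc in all 23 mice, with C1qb at 0.633 to 0.779 and C1qc at 0.352 to 0.475 of C1qa.

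Mice of one group also differed together in these chains. Deviations of log2 CPM from the group means were correlated over the 23 mice for all 45 pairs of the 10 genes, with 100000 permutations and Benjamini-Hochberg adjustment over the pairs. By Pearson's r, 3 pairs passed, the C1q pairs. For C1qa and C1qb, Pearson's r was 0.88 and Spearman's rho 0.86, for C1qa and C1qc 0.88 and 0.89, and for C1qb and C1qc 0.88 and 0.89 (adjusted permutation p = 0.00045 for each Pearson r). Without the 2 mice farthest from the median in the first-named gene of the pair, r was 0.85, 0.89 and 0.84. Mice far out in the other gene alone were kept. Within the first set of 15 libraries r was 0.91, 0.88 and 0.91, and within the second set of 8 it was 0.80, 0.96 and 0.84. Genes outside the 10 came near these values. By the same deviations, the closest of 10966 genes was Gnas for C1qa (r 0.87) and Tapbpl for C1qb (0.84). It was Acp5 for C1qc (0.82) and Rnf166 for Cfp (0.89). What these genes share with the chains was not tested. By rank, C3 with C4b and C2 with C4b passed as well. For C3 and C4b r was 0.66 (adjusted permutation p = 0.0657) and rho 0.67 (0.0371), and r was 0.47 without the 2 farthest mice, 0.68 within the first set and 0.87 within the second set. For C2 and C4b r was 0.36 (adjusted permutation p = 0.238) and rho 0.58 (0.0371), and r was 0.30 without the 2 farthest mice, 0.21 within the first set and 0.79 within the second set.

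Other genes with a similar pattern are given as a description, among 10966 genes of sufficient level over the 23 libraries, which share the group differences. C3ar1 was most like Clec5a, a myeloid lectin receptor (r 0.95, rho 0.87), Rrm2, a ribonucleotide reductase subunit (0.94, 0.85), and Olr1, a scavenger receptor (0.94, 0.85). C1qa was most like Acp5, a macrophage acid phosphatase (0.93, 0.84), Car4 (0.91, 0.74) and Tapbpl, of antigen loading (0.91, 0.86). C1qb was most like Tapbpl (0.93, 0.92). C1qc was most like Lcn2 (0.91, 0.54), Acp5 (0.90, 0.78) and Sftpd (0.90, 0.59). C3 was most like Csf2rb2 (r 0.92, rho 0.57) and the scavenger receptor Msr1 (0.91, 0.47). Cfb was most like Wfdc17 (0.90, 0.79) and the chemokine Ccl9 (0.90, 0.81). C5ar1 had no close companion: the nearest was Alox5, a leukotriene enzyme, with r of 0.72 and rho of 0.68.

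Other parts of the complement system were read from a longer list. Of 41 further genes in the file, among them proteases, lectins, terminal components, regulators and receptors, 36 were tested, and 7 rose and 0 fell from air to LPS, with a median log2 fold change of 0.16. Among all genes 2.71% rose. The classical pathway proteases C1ra (74.4 to 107 CPM), C1s1 (88.3 to 129 CPM) and C1s2 (6.1 to 9.33 CPM) rose with C1q, by 0.52 ± 0.11, 0.55 ± 0.14 and 0.62 ± 0.17 on the log2 scale (adjusted p = 0.00714, 0.0195 and 0.032 by edgeR). Clu, a regulator of the membrane attack complex, rose from 113 to 222 CPM (0.97 ± 0.11, adjusted p = 4.63e-06 by edgeR). Itgax and Itgb2, the chains of complement receptor CR4, rose by 1.04 ± 0.13 and 0.51 ± 0.13 (adjusted p = 6.27e-06 and 0.0178 by edgeR). Itgax is also on the alveolar macrophage list above, and C1ra and C1rb, like C1s1 and C1s2, are close copies between which reads can be split. The count of 7 was 2 without air replicate 2105, 4 without air replicate 2102 and 3 with only these groups in the fit.

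**Figure D5:**
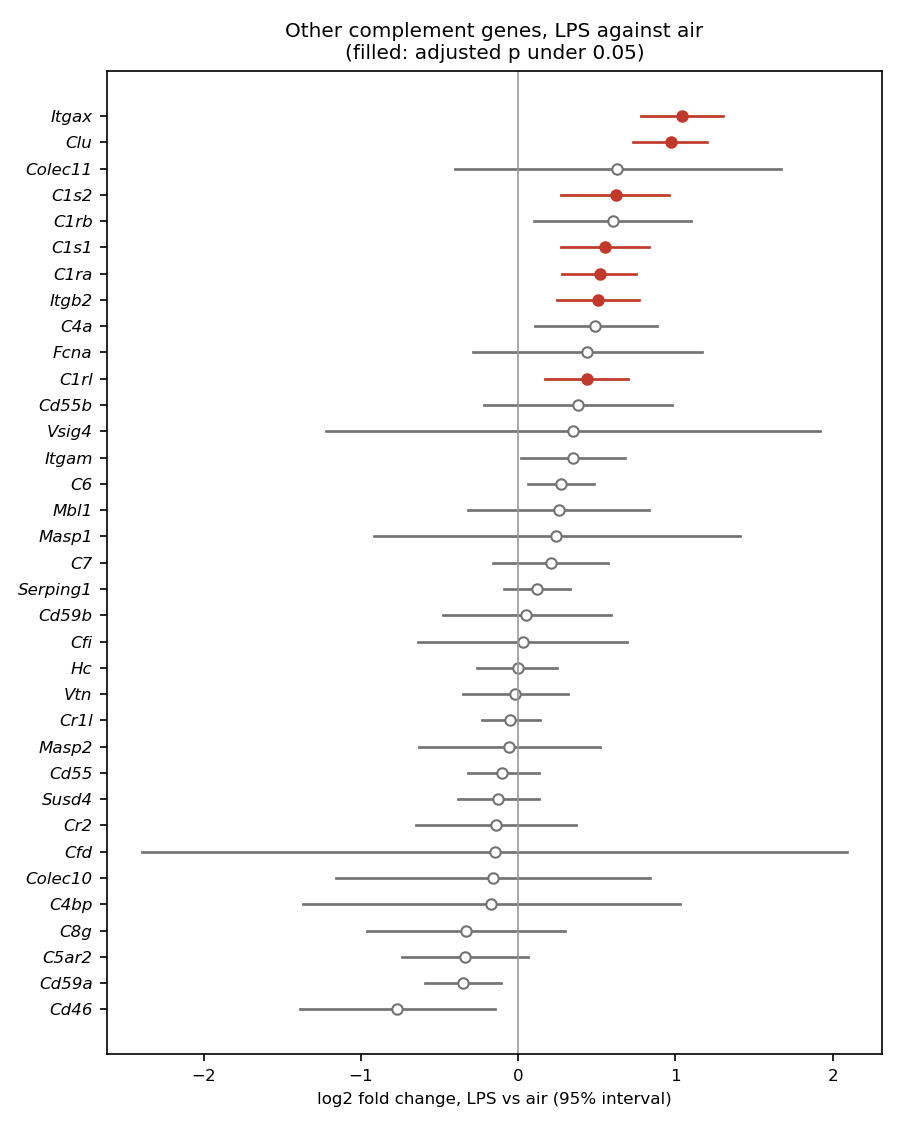
Log2 fold changes (x axis) with 95% intervals of 35 of the 36 further complement genes tested, LPS against air, sorted by value; filled points passed an adjusted p under 0.05. The 7 filled genes lie between 0.44 and 1.04, and the largest is Itgax.

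Against the shared air libraries, 9 of the 36 genes rose and 0 fell with native AAT, 6 rose and 1 fell with oxidized AAT, and 6 rose and 1 fell with recombinant AAT. Among all genes 5.62%, 3.76% and 6.83% were called in these comparisons. The 7 calls with oxidized AAT were 2 with the library set as a term, in the first set alone, or without air replicate 2105, and the 7 with recombinant AAT were 2 with the term and 3 without air replicate 2105.

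Clu was 0.84 ± 0.11, 0.95 ± 0.11 and 0.82 ± 0.11 above air on the log2 scale, beside 0.97 with LPS alone. C1s1 was 0.71 ± 0.14, 0.66 ± 0.14 and 0.63 ± 0.14 above air, and C1ra 0.58 ± 0.11, 0.51 ± 0.11 and 0.49 ± 0.11. C6, a terminal component, rose with native AAT, from 63.7 to 88.9 CPM (log2 0.48 ± 0.10, adjusted p = 0.00364 by edgeR). The genes that fell were Susd4, a membrane regulator, with oxidized AAT (log2 -0.45 ± 0.12, adjusted p = 0.0364 by edgeR) and Vtn, vitronectin, with recombinant AAT (-0.65 ± 0.16, 0.0122).

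Against LPS, none of the 36 genes was called with native or oxidized AAT by edgeR (4 and 3 at an unadjusted p under 0.05). DESeq2 called 0 of them with either preparation, and limma voom called 0 and 2. Among those of smallest p were Vtn (log2 -0.38 ± 0.14, adjusted p = 0.202 by edgeR) and C6 (0.22 ± 0.09, 0.246) with native AAT, and Susd4 (-0.32 ± 0.11, 0.086) with oxidized AAT. With recombinant AAT, 0 rose and 2 fell. That share of the 36 was no higher than the 8.49% of all genes called in either direction. Most of those calls were higher (6.47% of all genes), so the 8.49% is not a share of falling genes. Hc, which encodes C5, fell from 665 ± 72.9 to 515 ± 81.6 CPM (SD, n = 5 each), with a log2 fold change of -0.37 ± 0.11 (adjusted p = 0.033 by edgeR). Vtn, an inhibitor of the membrane attack complex, fell from 14.7 ± 2.77 to 9.5 ± 1.48 CPM (SD, n = 5 each), with a log2 fold change of -0.63 ± 0.14 (adjusted p = 0.00678 by edgeR). With the library set as a term, 0 of the 36 were called. With only these groups in the fit 1 was called, as without any single one of LPS replicate 1104 and LPS+recAAT replicates 6101, 6103 and 6104.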

How the data were processed

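Lung poly(A) RNA of 23 mice was sequenced, 1 library per mouse, with a stranded kit per the labels' protocols. The authors deposited raw, unnormalized counts for each Ensembl gene. The submitters' processing notes name STAR 2.4.0.1, HTSeq 0.11.1, Trimmomatic 0.36 and 0.38, FastQC 0.11.8 and the build GRCm38. For the counting, the strand setting and the annotation release were not given in the sources used here. Left out were 5 summary lines, which held reads on no feature (6.79% to 13.1%), ambiguous reads (1.12% to 1.39%) and reads aligned to several places (4.09% to 6.08%). GENCODE M21 named 40254 of the 41388 genes.

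Groups came from the sample titles: air (n = 3), LPS alone, and LPS with native, oxidized or recombinant AAT (n = 5 each). The labels speak of 5 mice per group, and the peptide C-36 was not analysed here. Depth was 26.5 to 30.4 M counts in air, 19.7 to 33.8 in LPS, 21.4 to 41.4 in LPS+nAAT, 24.5 to 38 in LPS+oxAAT and 14.8 to 47.9 in LPS+recAAT. Counting error weighs most on the genes with few counts, Cfb, C2 and C3ar1.

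All 23 libraries entered 1 model with a mean per group: TMM, filterByExpr, and edgeR 4.0.16 (R 4.3.3) with its two-sided robust quasi-likelihood F test. P-values were adjusted with Benjamini-Hochberg over 17148 genes and called under 0.05. Values are TMM-scaled CPM, SE is that of the log2 fold change, and 95% intervals come from the quasi-likelihood degrees of freedom. Level comparisons between genes used CPM per kb of merged exons. No 2 libraries held identical counts. The code was tested on simulated counts.

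Alternatives were a threshold of 0.01, the Wald test of DESeq2 1.42.0 and its size factors within edgeR, limma 3.58.1 voom with quality weights, library totals alone, other filters, only the groups compared, a replicate block, the library set as a term or as a selection, and each library left out in turn. The set splits libraries at 2% of mt-Nd6 to mt-Nd5. The 10 genes, the lists, the set and the tests were chosen with earlier results of these data known. All 10 genes were named in every comparison. Of the 41 further genes, up to 6 called ones of smallest adjusted p were named per comparison, or, with fewer than 2 called, the 2 of smallest p as values, and 1 gene is not reported here. Similar genes were the 3 of highest Pearson correlation per gene among genes averaging 3 or more in log2 CPM, of which some are named. Protein sequences were not used here.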

Additional observations from a re-analysis of the deposited data

Results flagged for a closer look

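In 40 groups of 5 mice, 1 for each gene and LPS group, 3 held a mouse set apart from the others by Dixon's criterion, which chance alone meets in about 1 of 20 groups. C1qa in LPS replicate 1105 was 45.6 CPM, the lowest of its group, with the nearest mouse at 61.3 CPM. C3 in LPS+recAAT replicate 6101 was 1127 CPM, the lowest of its group, with the nearest at 1759 CPM. Cfp in LPS+recAAT replicate 6105 was 26.2 CPM, the highest of its group, with the nearest at 22 CPM.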

How the results depend on the processing

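No direction of a called gene reversed under any alternative. At an adjusted p under 0.01, the number of the 10 genes called was 5 for LPS against air, 0 for LPS+nAAT against LPS and 0 for LPS+oxAAT against LPS. With only the 2 groups compared in the fit it was 0 for LPS+nAAT against LPS (C3ar1 adjusted p = 0.0861) and 0 for LPS+oxAAT against LPS (0.101). In the first library set alone it was 5 for LPS+oxAAT against air, 0 for LPS+nAAT against LPS and 0 for LPS+oxAAT against LPS. With the set as a term it was 1 for LPS+recAAT against air, 0 for LPS+oxAAT against LPS and 0 for LPS+recAAT against LPS, where 0% of all genes were called. The cause was not tested, beyond the smaller number of libraries where some were left out.

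Leaving out each library in turn gave 6 to 8 called genes for LPS against air, 6 to 7 for LPS+nAAT, 6 to 8 for LPS+oxAAT and 7 to 8 for LPS+recAAT against air. It gave 1 to 1 for LPS+nAAT and LPS+recAAT against LPS and 0 to 1 for LPS+oxAAT against LPS, where the call of C3ar1 was lost without LPS replicate 1102 (adjusted p = 0.0571) or LPS+oxAAT replicate 5103 (0.0729). Between preparations the count stayed at 0. Over these removals 897 of the values for single genes kept their side of the threshold and 23 lost it. The calls of C1qa, C1qb, C1qc, C3 and C3ar1 for LPS against air held under all 19 alternatives, with C3ar1 at 0.94 to 1.14.

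Mouse numbers share last digits between groups. Of same-digit pairs, 19 of 42 had a correlation of deviations over 0.1 (mean 0.07), beside 57 of 168 pairs with another digit (mean -0.02). Nearest to their own digit were 5 of 23 mice. The difference was not tested, so these values cannot exclude a pairing of the mice. With that digit as a replicate block, 9 genes were called for LPS against air, 6, 9 and 8 for LPS+nAAT, LPS+oxAAT and LPS+recAAT against air, 1 for each AAT group against LPS and 0 between preparations. Cfp was added in LPS (0.0183) and LPS+oxAAT (0.00949) against air, and C4b was lost in LPS+nAAT against air (0.053). DESeq2's Wald test added C2 for LPS+nAAT against air (0.0447). The 3 air libraries limit every comparison with air.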

Other observations

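Cfd, which encodes factor D, the protease that activates factor B, varied widely between mice of a group. It ranged from 2.71 to 24.3 CPM in air, 0.924 to 32 in LPS, 1.01 to 14.6 in LPS+nAAT, 6.04 to 30.3 in LPS+oxAAT and 0.687 to 23 in LPS+recAAT. The group means lay between 6.58 and 15.4 CPM, the SDs between 6.05 and 12.1 CPM, and no comparison was called by edgeR (adjusted p from 0.656 to 1).

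Of the terminal components, transcripts of Hc (C5) and C7 were plentiful in air lungs, at 667 ± 81.4 and 183 ± 36.5 CPM (SD, n = 3), and C6 was at 63.7 ± 4.31 CPM. C8a, C8b and C9 were too low to be tested, with no group mean above 0.136 CPM. In LPS+recAAT against LPS+nAAT, 4 of the 36 further genes fell and 0 rose, beside 1.93% of all genes called: Hc, C6, Itgb2 and Susd4. Hc was at 515 ± 81.6 against 718 ± 84.1 CPM and C6 at 68.7 ± 7.1 against 88.9 ± 10.3 CPM (SD, n = 5 each), with log2 fold changes of -0.48 and -0.37 (adjusted p = 0.0226 and 0.0264 by edgeR). Between the other preparations none of the 36 was called by edgeR, with 4 (oxidized against native) and 2 (recombinant against oxidized) at an unadjusted p under 0.05. DESeq2 called 1 and 0 of them, and limma voom 1 and 1. With the library set as a term 0 of these genes were called, and 0 without any single one of LPS+nAAT replicates 4101, 4104 and 4105 and LPS+recAAT replicates 6101 and 6104.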
